A study of Capra hircus with 10 samples.

Results

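Circular RNAs (circRNAs) whose host genes act in ubiquitination were examined in goat intramuscular fat cells. Members were taken by gene name, a choice made with earlier results of these data known. The host gene assigned by the authors had to begin with 1 of 28 prefixes, such as UBE, HERC, RNF, FBX, CUL, KLHL, USP or OTUD. The prefixes are those of ubiquitin ligases, ligase subunits, activating and conjugating enzymes, deubiquitinases and proteasome subunits. Of 1327 circRNAs with deposited counts, 62 were members, from 48 of 946 host genes. No member was found for 10 prefixes, among them PSM, so no proteasome subunit was included.

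The study sequenced RNA depleted of ribosomal RNA from cultured wild-type (WT) goat cells of intramuscular fat, to compare preadipocytes with adipocytes. Intramuscular preadipocytes (IMPA) were collected on day 0 and intramuscular adipocytes (IMA) on day 3 of adipogenic differentiation, which was induced with oleic acid, with 5 libraries in each group. Cells came from the longissimus dorsi muscle of young male Jianzhou goats, fewer goats than libraries in a group, and the goat behind each library is not stated, so the p-values measure the spread between libraries.

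Ubiquitin is a small protein that is activated by an E1 enzyme, carried by an E2 enzyme and joined to a lysine of a target by a ligase (E3), and many chains of it send the target to the proteasome. HECT ligases first bind ubiquitin on a cysteine of their own, RING and U-box ligases bring a charged E2 to the target, and cullin-RING ligases do so with exchangeable receptors such as F-box and BTB-Kelch proteins. Deubiquitinases take ubiquitin off again, and in fat cells regulators of adipogenesis such as PPARG are themselves ubiquitinated.

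A circRNA arises when a splice donor is joined to an acceptor that lies upstream of it, and junction reads cross that back-splice. Non-junction reads cover the same splice sites without crossing the back-splice, and stand mainly for linear transcripts of the host gene. Summed over all circRNAs, an IMPA library had 11421 to 15553 junction reads, with a median of 14156, and an IMA library 9622 to 12499, with a median of 10234. Their summed non-junction reads were 297727 to 435228 in IMPA and 199376 to 291370 in IMA, ranges that did not overlap. The share of reads mapped to the genome in the study also separated the groups, and its part in the results was not tested. Levels of junction reads are given as normalized CPM, counts scaled to 1e6 junction reads after TMM scaling, and those of non-junction reads in the same way over the loci tested. A circRNA at 0 may still have up to 3 reads at the same depth, or 193 to 263 CPM in an IMPA library and 240.0 to 312 CPM in an IMA library, for counting error alone. The smallest count above 0 was 2, and a circRNA without a call in a library has no non-junction entry there.

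Members took 5.99% ± 0.350 (SD, n = 5) of the junction reads of an IMPA library and 6.29% ± 0.151 (SD, n = 5) of an IMA library, with overlapping ranges of 5.61% to 6.43% and 6.11% to 6.52%. Reads of 59 to 62 members were found in an IMPA library and of 50 to 60 in an IMA library. That was 98.4% of the members on average in IMPA and 89.7% in IMA, beside 93.2% and 86.5% of all circRNAs. In bulk RNA, fewer cells of a type and less RNA per cell cannot be told apart.

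Markers of cell types could be read only through circRNAs of the marker genes. Of the markers, 0 of 10 for adipocytes, 0 of 5 for endothelium, 0 of 5 for immune cells and 0 of 4 for smooth muscle and pericytes hosted a circRNA. Nor did any of the 8 names for preadipocytes and mesenchymal progenitors, which include an alias of a gene already listed. The labelled cell types could therefore not be checked on their defining genes. Of 10 fibroblast and matrix markers, COL5A2 and FBN1 hosted circRNAs, with 13 to 30 summed junction reads in an IMPA library and 14 to 27 in an IMA library. Of 16 striated muscle markers, MYBPC1 and MYPN hosted circRNAs. Their summed junction reads were 2 to 3 in each IMPA library, and 14, 12, 23, 18 and 21 in IMA1 to IMA5. MYPN was the more abundant, and MYBPC1 was at 0 in all 5 IMPA libraries. Linear reads of COL5A2, FBN1 and MYPN rose in IMA. The non-junction log2 fold changes were 0.63 for COL5A2 (edgeR adjusted p = 7.29e-13), 0.34 and 0.29 at the loci of FBN1 (edgeR adjusted p = 1.84e-05 and 0.000101) and 0.84 for MYPN (edgeR adjusted p = 6.85e-08), all by Benjamini-Hochberg. The part of fibroblasts or muscle cells in the results was not tested.

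The 62 circRNAs lay on 25 chromosomes. Of these, 61 came from exons and 1, from CUL1, from an intron, by the authors' annotation. They were like the whole table in size, with a median spliced length of 322.5 nt against 320 nt for all 1327, and a median of 2 exons in both. The median span on the genome was 10084 bases, against 8045 for all. Of the 48 genes, 36 hosted 1 circRNA, 10 hosted 2, and UBE3A and FBXW8 hosted 3 each. Abundance was uneven. A mean of 10 or more junction reads was reached by 20 members (32.3%, against 24.5% of all circRNAs), and circ_0009593 of UBE3A alone held 18.1% of the 7430 junction reads of members. All 62 members passed the filter of the junction test, a count above 0 in at least 5 of 10 libraries, as did 1294 of all circRNAs. At least 1 IMA library lacked reads of 18 members (29.0%, against 35.8% of all circRNAs), and at least 1 IMPA library lacked reads of 5 members (8.06%, against 18.5% of all).

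The question of the comparison was which host genes changed their circular or linear output between day 0 and day 3. In junction reads no member passed the test, and USP3, which encodes a deubiquitinase of histone H2A, had the member circRNA nearest to it, with a higher level in every IMA library and a log2 fold change of 0.39. Those of the deubiquitinase genes USP1 and OTUD3 and of the RING ligase genes RNF4 and RNF121 had lower levels in IMA, and the CUL1 circRNA a higher one, each within an unadjusted p under 0.05 alone. At a Benjamini-Hochberg adjusted p under 0.01, edgeR called 0 of 62 members, beside 0.927% of the 1294 circRNAs tested, and limma voom and DESeq2 also called 0 members. At an unadjusted p under 0.05, edgeR placed 2 members higher in IMA (USP3 and CUL1), beside 4.79% of all tested, and 4 lower, beside 8.35% of all. By limma voom these counts were 2 and 5, and by DESeq2 2 and 3. Adjusted p-values here and below are Benjamini-Hochberg values over all circRNAs or loci tested. Levels of a single member, circ_0005511 of USP3, did not overlap between the groups, beside 4.4% of all tested. The median log2 fold change was -0.11 over members and -0.06 over all 1294, and both turned above 0 with non-junction reads as library sizes.

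Scaling moved these values more than the choice of test. Summed non-junction reads lack the loci that have no entry in a library, and fewer circRNAs were detected in IMA (86.5% on average) than in IMPA (93.2%). The sums averaged 361493 in IMPA and 237042 in IMA. Over loci with entries in all 10 libraries they averaged 205935 and 144655. The part of missing entries in this scaling was not tested. With summed non-junction reads as library sizes, the median of all circRNAs was higher by 0.27 on the log2 scale than with TMM, the medians were 0.16 over members and 0.20 over all, and 850 of 1294 circRNAs lay above 0. At an unadjusted p under 0.05, 11 members were then higher, beside 16.1% of all, and 2 lower, beside 2.4%, and edgeR called 1 member higher, USP3, beside 0.696% of all. Over all circRNAs at an adjusted p under 0.01, edgeR's calls were 6 higher and 6 lower with TMM, 6 and 2 with library totals alone, and 9 and 1 with non-junction reads as library sizes.

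In non-junction reads, which could be tested at 39 member loci read in all 10 libraries, the linear output of a few genes changed. It rose at the loci of the deubiquitinase genes USP13 (log2 fold change 1.35) and USP47 (0.80) and of UBAP2 (0.81). It fell at a locus of HUWE1, a very large HECT ligase (-0.51), and by less at that of MARCH3, a membrane-bound RING ligase (-0.21). With edgeR at a Benjamini-Hochberg adjusted p under 0.01, 4 of 39 member loci were higher in IMA, of which 3 are described here, beside 11.6% of the 690 loci tested, and 2 lower, beside 10.1% of all. At an adjusted p under 0.05 in the same edgeR test (Benjamini-Hochberg), 5 members were higher, with UBR3 added, beside 18.4% of all, and 3 lower, with BTBD3 added, beside 17.2%. Its counts at an unadjusted p under 0.05 were 5 higher, beside 22.9% of all, and 6 lower, beside 21.9%. Groups did not overlap at 7 of 39 member loci, beside 22.2% of all 690, and these were the 6 called loci and UBR3. Median log2 fold changes were -0.01 over members and 0.00 over all 690. Without TMM the calls over all loci were 48 higher and 106 lower, against 80 and 70 with it, and 3 members were higher and 2 lower.

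At the 39 loci with both values, log2 fold changes of junction and non-junction reads correlated with r = 0.11, against 0.25 over all 690 loci, a description across loci that share libraries and, within a gene, reads.

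**Figure D1:**
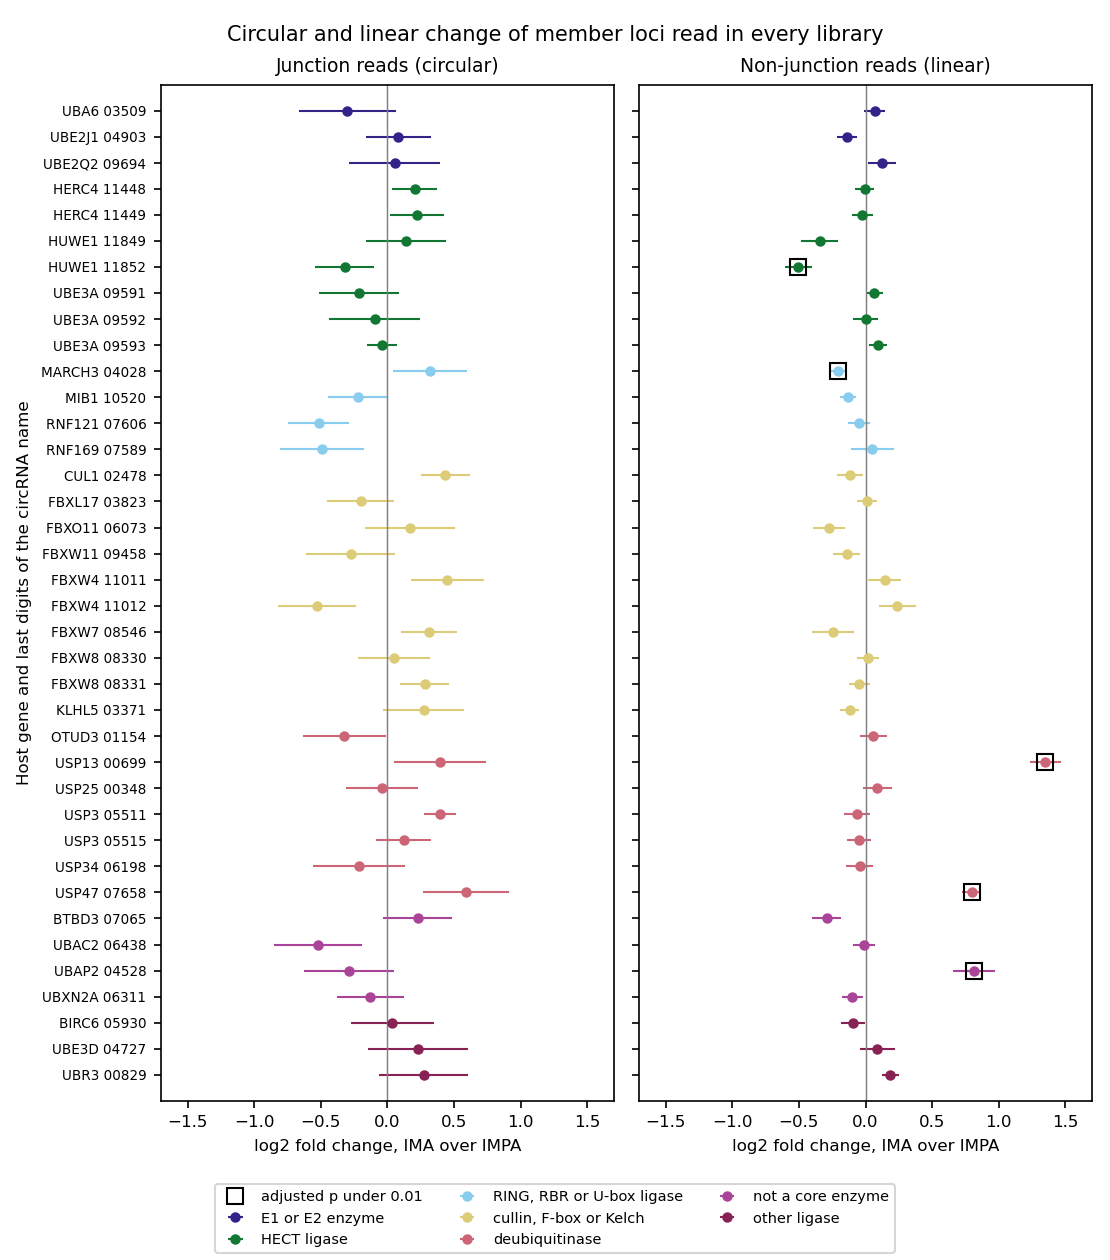
Log2 fold change of junction reads (left) and non-junction reads (right), IMA over IMPA, at the member loci read in all 10 libraries, of which 1 is not shown, with bars of 1 standard error from edgeR and colours for the role of the host gene. Squares mark loci past an adjusted p of 0.01, all in non-junction reads, from -0.51 for HUWE1 to 1.35 for USP13, while the values of junction reads have wider bars and none passed.

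The circular to linear ratio, tested with limma on log2 of 2 times the junction reads plus 1 over the non-junction reads plus 1, lay above 0 over most of the table and over 29 of 39 members, in log2 fold change of IMA over IMPA. Its median log2 fold change was 0.27 over 39 members and 0.34 over all 689 circRNAs tested, and 18 members lay above the median of all. At a Benjamini-Hochberg adjusted p under 0.01, limma called 0 of 39 members, beside 0.581% of all. At an unadjusted p under 0.05 limma placed 9 members higher, beside 23.8% of all, and 0 lower, beside 1.89%. With edgeR's test of the interaction of read kind and group, 2 members were called higher, USP3 (adjusted p = 0.000374) and CUL1 (adjusted p = 0.00431), beside 3.05% of all. That test placed 13 members higher at an unadjusted p under 0.05, beside 23.8% of all, and 1 lower, beside 2.18%. The circular share, 2 times the junction reads as a percentage of itself plus the non-junction reads, had a median over members of 10.6% ± 0.987 in IMPA and 11.4% ± 1.40 in IMA, and over all loci of 10.4% ± 0.606 and 12.3% ± 0.401 (SD, n = 5 per group).

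Activating and conjugating enzymes gave 4 members. Among them, UBA6 is an alternative E1 of ubiquitin, UBE2J1 an E2 anchored in the endoplasmic reticulum, and UBE2Q2 a further E2. The median junction log2 fold change of the 4 was -0.12, which turned to 0.13 with non-junction reads as library sizes, and edgeR placed none within an unadjusted p under 0.05. Non-junction reads were tested at 3 of these loci, with values of -0.14 to 0.13 and 0 calls by edgeR at an adjusted or an unadjusted threshold. UBA6 (circ_0003509, chromosome 6, 84066691 to 84078498, minus strand) had among the lowest circular shares of the 39 members read in all libraries, 3.64% on average. It had 8, 5, 5, 7 and 4 junction reads in IMPA1 to IMPA5 and 6, 3, 3, 3 and 3 in IMA1 to IMA5. Its reads were few in both groups, at 3 in 4 of the IMA libraries, and the groups overlapped.

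HECT ligase genes hosted 11 members, and linear reads fell at a locus of HUWE1. HUWE1 ubiquitinates, among others, p53 and MCL1, and hosted circ_0011849 (chromosome X, 23174299 to 23175475, minus strand) and circ_0011852 (chromosome X, 23259603 to 23268791, minus strand). The locus of circ_0011852 had 1178, 1261, 993, 1340.2 and 996 normalized non-junction CPM in IMPA1 to IMPA5 and 630.2, 943, 818, 795 and 847 in IMA1 to IMA5. Every IMA library lay below every IMPA library, and IMA1 was the lowest. Its non-junction log2 fold change was -0.51 (SE 0.10, edgeR adjusted p = 0.000265), and it passed 0.01 in all 10 fits that left out a library, with an adjusted p of at most 0.00255. The other HUWE1 locus, that of circ_0011849, pointed the same way without passing, at -0.34 (SE 0.14, edgeR adjusted p = 0.0516). There IMA2, IMA4 and IMA5 lay inside the IMPA range. With a block for the replicate number this locus passed (edgeR adjusted p = 0.00896), but no label says that libraries of equal number are paired. Centred within each group, non-junction levels of such libraries correlated across loci at r = -0.18 to 0.16. Junction reads of circ_0011852 gave -0.32 (edgeR adjusted p = 0.546) and those of circ_0011849 0.14 (edgeR adjusted p = 0.871). The value of circ_0011849 ranged from -0.03 to 0.41 over all alternatives and turned direction.

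UBE3A, the ligase whose maternal loss causes Angelman syndrome, hosted the most abundant member. All 3 of its circRNAs end at position 1525199 of chromosome 21, the acceptor side on the minus strand, and start at 1493590, 1506249 and 1519363. The shortest of them on the genome, circ_0009593, with 5 exons and 558 nt, had 11692, 11444, 11943, 10090.2 and 11251 normalized junction CPM in IMPA1 to IMPA5 and 11834, 9142, 11685, 13017 and 9110.1 in IMA1 to IMA5. Levels overlapped, with IMA4 the highest and IMA2 and IMA5 the lowest, and their means were 11284 ± 716 and 10958 ± 1750.0 (SD, n = 5 per group). The junction log2 fold changes of circ_0009591, circ_0009592 and circ_0009593 were -0.21, -0.10 and -0.04 (edgeR adjusted p, 0.785, 0.925 and 0.895), and with non-junction reads as library sizes they were 0.06, 0.15 and 0.30. Linear reads of the gene had log2 fold changes of 0.06, 0.00 and 0.09 at these loci, and edgeR called none. Circular shares differed within the gene, from 3.99% for circ_0009591 and 6.61% for circ_0009592 to 41.8% for circ_0009593.

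HERC4 hosted circ_0011448 (chromosome 28, 21105586 to 21124466, plus strand) and circ_0011449, which starts at the same base and ends at 21138064. The first had 47, 23, 44, 33 and 31 junction reads in IMPA1 to IMPA5 and 39, 34, 40, 32 and 27 in IMA1 to IMA5, and the second 20, 12, 20, 15 and 30 junction reads in IMPA1 to IMPA5 and 21, 15, 21, 14 and 24 in IMA1 to IMA5. Both lay among the 6 most abundant members, their groups overlapped, and their junction log2 fold changes were 0.21 (edgeR adjusted p = 0.625) and 0.22 (edgeR adjusted p = 0.67). ITCH, a ligase of the NEDD4 family, and UBE3C, which acts at the proteasome, hosted 3 further HECT members, with 0 to 8 junction reads in a library. Over all 11 HECT members the median junction log2 fold change was -0.10 with TMM and 0.15 with non-junction reads as library sizes, and edgeR placed none within an unadjusted p under 0.05.

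RING, RBR and U-box ligase genes hosted 12 members, and 10 of them had a junction log2 fold change below 0, or 7 with non-junction reads as library sizes. Over all 1294 circRNAs 713 lay below 0, or 444 with that scaling. The median of the RING group was -0.46, or -0.22 with that scaling, and edgeR called none, with 2 lower and 0 higher at an unadjusted p under 0.05, beside 8.35% and 4.79% of all circRNAs. RNF4, a ligase that recognises SUMO chains, hosted circ_0003134 (chromosome 6, 116352939 to 116362990, plus strand), with 10, 14, 21, 9 and 16 junction reads in IMPA1 to IMPA5 and 0, 3, 10, 6 and 6 in IMA1 to IMA5. Of the IMA libraries, IMA3 alone reached the IMPA range, whose lowest library held 9 reads, and IMA1 had none. Its junction log2 fold change was -0.98 (SE 0.33, edgeR adjusted p = 0.149). RNF121, a ligase of the endoplasmic reticulum and Golgi, hosted circ_0007606 (chromosome 15, 31809909 to 31816611, minus strand), with 27, 14, 18, 16 and 32 junction reads in IMPA1 to IMPA5 and 14, 7, 10, 12 and 16 in IMA1 to IMA5. IMPA1 and IMPA5 stood above the rest and the other libraries overlapped, with a log2 fold change of -0.51 (SE 0.23, edgeR adjusted p = 0.28). Another circRNA of RNF121, circ_0007605, starts at the same base, ends at 31816565 and had 0 to 6 reads in a library.

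MARCH3, a ligase of endosomal membranes, had the 1 linear change called among the 4 RING loci that could be tested in all libraries. The limma fit that dropped missing libraries reached 11 of the 12 RING loci and called none, with 0 higher and 2 lower at an unadjusted p under 0.05. Its circ_0004028 (chromosome 7, 83596479 to 83599864, minus strand) has 28 predicted miRNAs, the most of any member together with a circRNA of USP34. The locus had 2842, 2741, 3153, 3056 and 2752 normalized non-junction CPM in IMPA1 to IMPA5 and 2648, 2486, 2360.1, 2490.5 and 2585 in IMA1 to IMA5. All IMA libraries lay below all IMPA libraries, but IMA1 came close to IMPA2 and IMPA5. The non-junction log2 fold change was -0.21 (SE 0.06, edgeR adjusted p = 0.00951). Leaving out 1 library moved the edgeR adjusted p above 0.01 in 8 of 10 cases, to 0.0159 without IMPA1, 0.0354 without IMPA3, 0.0231 without IMPA4, 0.0114 without IMA1, 0.0276 without IMA2, 0.0315 without IMA3, 0.0253 without IMA4 and 0.0176 without IMA5. With DESeq2 it was 0.0125, and all alternatives ranged from 0.000755 to 0.0354. Junction reads of circ_0004028 were 15, 5, 10, 14 and 10 in IMPA1 to IMPA5 and 15, 7, 8, 10 and 18 in IMA1 to IMA5, and the ratio had a log2 fold change of 0.88 (SE 0.33, limma adjusted p = 0.114).

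RNF169, which acts at DNA double-strand breaks, had a circular share of 34.1%, with a junction log2 fold change of -0.49 (edgeR adjusted p = 0.512) and 3 to 14 reads in a library. MIB1, which drives endocytosis of Notch ligands, had 10 to 22 junction reads in a library and log2 fold changes of -0.22 in junction and -0.13 in non-junction reads (edgeR adjusted p, 0.691 and 0.1). Its junction value ranged from -0.31 to 0.08 over all alternatives, and so turned direction. The circRNAs of MARCH7, RNF111, RNF13, TRIM37 and UBE4B each lacked reads in at least 1 IMA library, and that of RNF216 in 1 IMPA library. Fitted folds of members with counts of 0 depend on the prior count of the test.

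Cullin-RING ligases, the class to which F-box and Kelch proteins belong, gave 15 members with a median junction log2 fold change of 0.05, or 0.34 with non-junction reads as library sizes. No non-junction change was called among the 10 loci tested at an adjusted p under 0.01, with 0 higher and 1 lower at an unadjusted p under 0.05 by edgeR, limma voom and DESeq2 alike, beside 22.9% higher and 21.9% lower of all 690 loci by edgeR. With missing libraries dropped, limma reached 14 of the 15 loci and called 1 higher, KLHL24, beside 9.97% of all, and 0 lower, beside 9.55%. That fit placed 2 higher and 1 lower at an unadjusted p under 0.05, beside 255 and 250 of 1183 loci. At the 10 loci read in all libraries the ratio had a median log2 fold change of 0.67, against 0.34 over all circRNAs. Of these, 9 of 10 lay above 0, against 511 of 689 over all. At an unadjusted p under 0.05 limma placed 5 of the 10 higher, beside 23.8% of all, and called none. CUL1, the scaffold of the SCF ligases, hosted circ_0002478 (chromosome 4, 8722128 to 8735718, minus strand), which the authors annotated as intronic. Its deposited spliced length, 473 nt, is far below its span of 13591 bases, and its origin was not tested. It had 2119, 1300.5, 1409, 1835 and 1777 normalized junction CPM in IMPA1 to IMPA5 and 2826, 2095, 2481, 2303 and 2014 in IMA1 to IMA5. IMA1 and IMA3 were highest and IMPA2 lowest, while IMA2 and IMA5 lay below IMPA1, so the groups overlapped. Its junction log2 fold change was 0.44 (SE 0.18, edgeR adjusted p = 0.242), and its ratio gave 0.90 (SE 0.26, limma adjusted p = 0.0596). Its circular share averaged 20.0 ± 2.89% in IMPA and 31.9 ± 4.68 in IMA (SD, n = 5 per group).

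FBXW7, the receptor for cyclin E and MYC, hosted circ_0008546 (chromosome 17, 65591887 to 65593129, minus strand), which had the highest circular share of the 39 members read in all libraries. The share in percent was 48.4, 43.4, 41.1, 40 and 42.9 in IMPA1 to IMPA5 and 53.7, 67.8, 61.3, 50 and 60.2 in IMA1 to IMA5. Every IMA library lay above every IMPA library, with IMA2 the highest, and IMA4 came nearest to IMPA1. Its means were 43.1% ± 3.24 and 58.6% ± 6.94 (SD, n = 5 per group), and the ratio had a log2 fold change of 0.88 (SE 0.24, limma adjusted p = 0.0565). Neither kind of read was called alone: junction reads gave 0.31 (edgeR adjusted p = 0.524) and non-junction reads -0.24 (edgeR adjusted p = 0.24). Its deposited spliced length is 50 nt in 1 exon.

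FBXW8, a receptor that works with CUL7, hosted 3 circRNAs that start at position 13083954 of chromosome 17 and end at 13103159, 13115755 and 13146806. The middle one, circ_0008331, was the most abundant, with 23, 15, 29, 24 and 35 junction reads in IMPA1 to IMPA5 and 23, 26, 24, 31 and 24 in IMA1 to IMA5. Groups overlapped, and its log2 fold change was 0.28 (edgeR adjusted p = 0.518) in junction reads and 0.69 (limma adjusted p = 0.137) in the ratio. For circ_0008330 the junction log2 fold change was 0.05 (edgeR adjusted p = 0.958), -0.05 by limma voom, -0.04 without IMA1 and -0.14 without IMA2, and for circ_0008332, which had no reads in IMPA2, 0.38 (edgeR adjusted p = 0.677). FBXW4 hosted circ_0011011 and circ_0011012, which start at position 29240204 of chromosome 26 and end at 29244032 and 29250491. The shorter had 14, 9, 11, 8 and 6 junction reads in IMPA1 to IMPA5 and 11, 19, 12, 7 and 9 in IMA1 to IMA5, and the longer 8, 7, 13, 16 and 11 junction reads in IMPA1 to IMPA5 and 5, 8, 7, 5 and 4 in IMA1 to IMA5. IMA2 stood above the other libraries in the shorter, and the groups overlapped in both. Their junction log2 fold changes were 0.45 (edgeR adjusted p = 0.487) and -0.53 (edgeR adjusted p = 0.438).

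KLHL5, a Kelch protein, hosted circ_0003371, with 4 to 10 reads in a library and a log2 fold change of the ratio of 0.81 (limma adjusted p = 0.105). FBXO11, a receptor for BCL6, had a non-junction log2 fold change of -0.27 (edgeR adjusted p = 0.0681) and a log2 fold change of the ratio of 0.73 (limma adjusted p = 0.172). FBXW11, a beta-TrCP protein, and FBXL17 had junction values of -0.28 and -0.20 (edgeR adjusted p, 0.754 and 0.761). The value of FBXL17 ranged from -0.38 to 0.09 over all alternatives, and so turned direction.

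Deubiquitinase genes hosted 13 members, and the linear reads of USP13 and USP47 rose by more than those of any other ubiquitin enzyme tested here. USP13, a deubiquitinase known from autophagy and protein quality control, hosted circ_0000699 (chromosome 1, 87033531 to 87036229, minus strand). Its locus had 258, 268, 284, 381 and 390.3 normalized non-junction CPM in IMPA1 to IMPA5 and 793, 884, 783, 908 and 796 in IMA1 to IMA5. Every IMA library lay far above every IMPA library, and IMPA4 and IMPA5 were the highest of their group. Its non-junction log2 fold change was 1.35 (SE 0.12, edgeR adjusted p = 8.65e-11), with means of 316 ± 64.2 in IMPA and 833 ± 58.4 in IMA (SD, n = 5 per group). Junction reads were few, 4, 3, 9, 5 and 6 in IMPA1 to IMPA5 and 5, 6, 3, 7 and 11 in IMA1 to IMA5, with overlap and a log2 fold change of 0.40 (edgeR adjusted p = 0.656). The ratio, at -0.63 (SE 0.35, limma adjusted p = 0.258), was below 0 at a locus where most of the table was above it.

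USP47, which acts on DNA polymerase beta in base excision repair, hosted circ_0007658 (chromosome 15, 41515516 to 41525826, plus strand). Its locus had 1650.0, 1802, 1759, 1884 and 1697 normalized non-junction CPM in IMPA1 to IMPA5 and 3321, 3474, 2868, 2675 and 2964 in IMA1 to IMA5. No IMPA library came near the IMA range, in which IMA2 was highest and IMA4 lowest. The non-junction log2 fold change was 0.80 (SE 0.07, edgeR adjusted p = 1.32e-10). Its circular share, 3.04% on average, was the lowest of the 39 members with both kinds of read. Its junction reads were 4, 3, 8, 5 and 6 in IMPA1 to IMPA5 and 9, 3, 8, 7 and 10 in IMA1 to IMA5, a log2 fold change of 0.59 (SE 0.32, edgeR adjusted p = 0.433). USP13 and USP47 passed 0.01 in all 10 fits that left out a library and with each scaling and test tried (largest edgeR adjusted p with a library left out, 7.45e-09 and 1.04e-08).

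**Figure D2:**
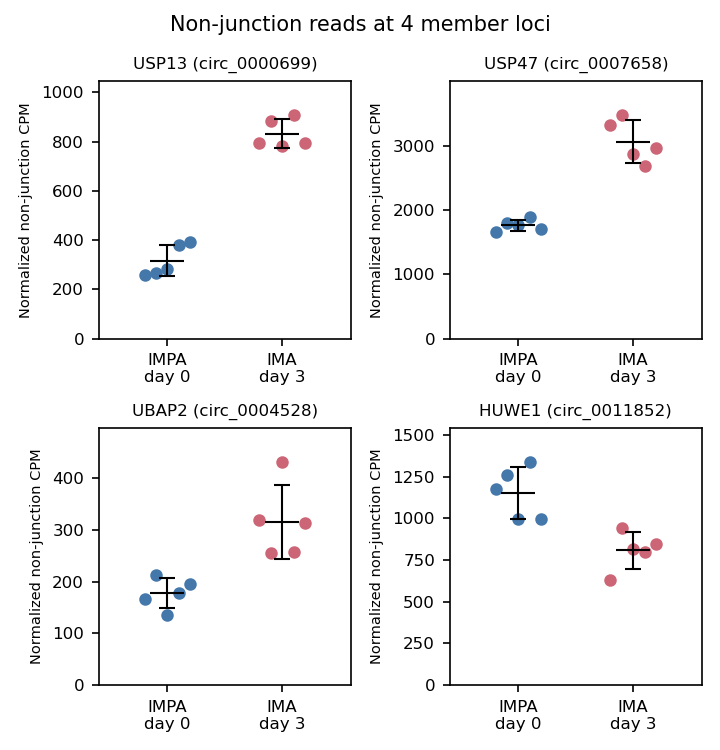
Normalized non-junction CPM per library, IMPA at day 0 and IMA at day 3, at the 4 member loci past an adjusted p of 0.01 in the full test and in every fit that left out a library, with the mean and SD as bars (n = 5 each). USP13 lies at 258 to 390.3 CPM in IMPA and 783 to 908 in IMA, and USP47 at 1650.0 to 1884 and 2675 to 3474, while HUWE1 lies lower in every IMA library than in any IMPA library.

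USP3 hosted the most nearly called circRNA, circ_0005511 (chromosome 10, 56624085 to 56628179, plus strand), with 4 exons and 392 nt. It had 6430.3, 6156, 6231, 6254 and 5724 normalized junction CPM in IMPA1 to IMPA5 and 6888, 7904, 9364, 8311 and 8151 in IMA1 to IMA5. All IMA libraries lay above all IMPA libraries, with IMA3 the highest and IMA1 nearest to IMPA1. Its junction log2 fold change was 0.39 (SE 0.12, edgeR adjusted p = 0.0922), short of the threshold, at an unadjusted p of 0.00221. With non-junction reads as library sizes its edgeR adjusted p was 0.000414, the lowest of a range up to 0.214 over all alternatives. Linear reads at the locus had a log2 fold change of -0.06 (edgeR adjusted p = 0.658), and the ratio of 0.77 (SE 0.23, limma adjusted p = 0.0661). The circular share in percent was 40, 37.2, 44.4, 39.8 and 43.1 in IMPA1 to IMPA5 and 46.7, 52.9, 56.0, 59.7 and 55.7 in IMA1 to IMA5. Every IMA library was above every IMPA library in this share, which averaged 47.5%, behind FBXW7 alone among the 39 members read in all libraries. A longer circRNA of USP3 from the same start, circ_0005515, had a junction log2 fold change of 0.12 (edgeR adjusted p = 0.825).

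Lower levels in IMA were seen for the circRNAs of USP1, which acts on FANCD2 and PCNA, and of OTUD3, a deubiquitinase of the OTU family. USP1 (circ_0001681, chromosome 3, 37798508 to 37803053, plus strand) had 5, 8, 7, 8 and 3 junction reads in IMPA1 to IMPA5 and 0, 0, 2, 0 and 3 in IMA1 to IMA5. It was at 0 in IMA1, IMA2 and IMA4, and at 3 in both IMPA5 and IMA5, for a log2 fold change of -1.33 (SE 0.43, edgeR adjusted p = 0.129). OTUD3 (circ_0001152, chromosome 2, 3175622 to 3181084, plus strand) had 15, 3, 10, 8 and 12 junction reads in IMPA1 to IMPA5 and 4, 0, 4, 0 and 7 in IMA1 to IMA5. IMA2 and IMA4 were at 0 and IMPA1 was highest, while IMPA2 lay within the IMA range, and the log2 fold change was -1.02 (SE 0.39, edgeR adjusted p = 0.22). Its other circRNA, circ_0001154, gave -0.32 (edgeR adjusted p = 0.68). USP24, at 0 in IMPA2 and 2 to 9 reads in the remaining libraries, gave 0.69 (edgeR adjusted p = 0.479). The circRNAs of USP16, which also acts on histone H2A, of USP25 and of USP34, a regulator of Wnt signalling through axin, were also outside an unadjusted p of 0.05 by edgeR. Their junction log2 fold changes were -0.65 for USP16, 0.32 and -0.04 for USP25, and 0.12 and -0.21 for USP34. The value of -0.04 for USP25 (circ_0000348) ranged from -0.18 to 0.26 over all alternatives and turned direction. So did both values of USP34, at -0.20 to 0.34 for circ_0006190 and -0.35 to 0.04 for circ_0006198. Over the 13 members the junction median was 0.12 with TMM, with 7 above 0, and 0.34 with non-junction reads as library sizes, with 9 above 0.

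**Figure D3:**
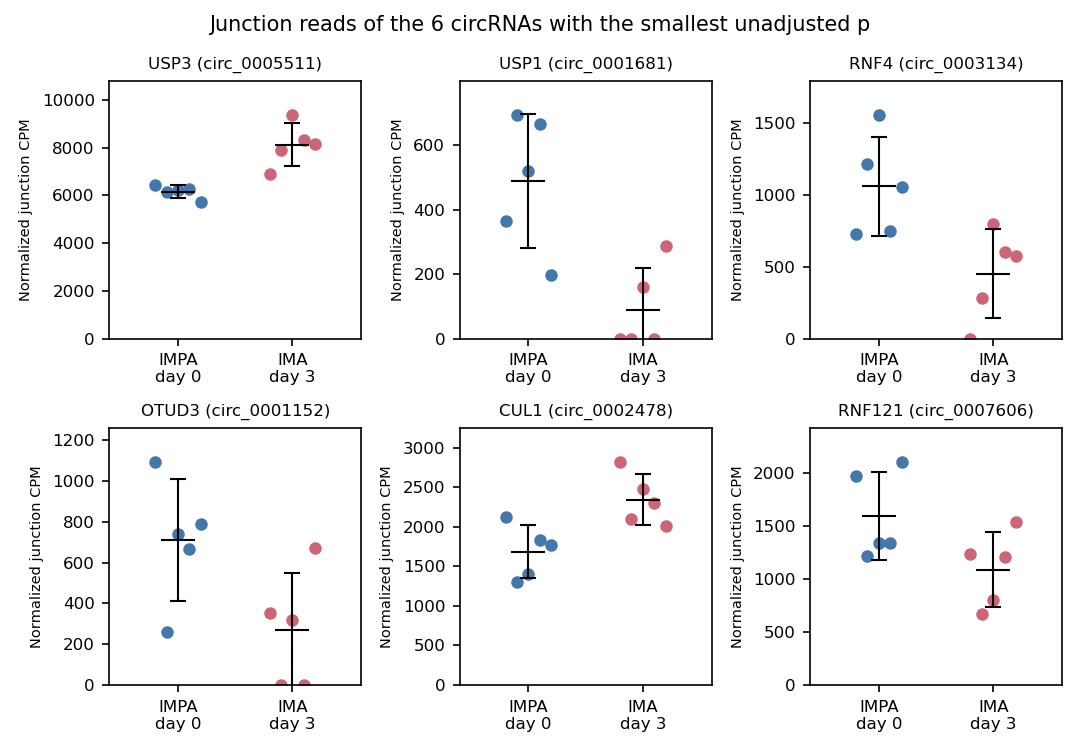
Normalized junction CPM per library for the 6 member circRNAs with the smallest unadjusted p, IMPA at day 0 and IMA at day 3, with the mean and SD as bars (n = 5 each). Groups are apart for USP3 alone, at 5724 to 6430.3 CPM in IMPA and 6888 to 9364 in IMA, and some IMA libraries of USP1, RNF4 and OTUD3 lie at 0.

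Ligases of other types gave 3 members: BIRC6, a giant enzyme with E2 and E3 activity that blocks apoptosis, UBE3D, and UBR3, of the N-recognin family. Their junction log2 fold changes were 0.04 to 0.27, none called by edgeR nor within an unadjusted p under 0.05. The value of BIRC6, the lowest of them, ranged from -0.04 to 0.30 over all alternatives and turned direction. The locus of UBR3 (circ_0000829, chromosome 2, 109818344 to 109827943, plus strand) had 1549.9, 1562, 1658, 1419 and 1462 normalized non-junction CPM in IMPA1 to IMPA5 and 1791, 1759.7, 1659, 1719 and 1789 in IMA1 to IMA5. Its groups were just apart, with IMPA3 and IMA3 almost equal. The non-junction log2 fold change was 0.19 (SE 0.07, edgeR adjusted p = 0.0294), past 0.05 and not 0.01. It was above 0.05 without IMPA4 (0.0796), IMPA5 (0.0585) or IMA5 (0.0625), with DESeq2 (0.0636) and without TMM (0.148), the highest of all alternatives, which began at 0.0201.

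The prefixes also took 4 genes that are no ubiquitin enzymes. UBAP2 holds a ubiquitin-associated domain, UBAC2 and UBXN2A serve protein degradation as adaptors, and BTBD3 is a BTB protein known from neurons. UBAP2 (circ_0004528, chromosome 8, 75152931 to 75174221, minus strand) had 167, 213, 135, 178 and 195 normalized non-junction CPM in IMPA1 to IMPA5 and 319, 255, 432, 257 and 314 in IMA1 to IMA5. All IMA libraries lay above all IMPA libraries, with IMA3 the highest. Its non-junction log2 fold change was 0.81 (SE 0.16, edgeR adjusted p = 0.00017), past 0.01 in all 10 fits that left out a library, while its junction reads gave -0.29 (edgeR adjusted p = 0.747), and its ratio, -0.73 (limma adjusted p = 0.309), had the lowest log2 fold change of the 39 members. BTBD3 (circ_0007065, chromosome 13, 5212170 to 5213705, plus strand) had 634, 508, 631, 712 and 777 normalized non-junction CPM in IMPA1 to IMPA5 and 474, 547, 519.9, 578 and 562 in IMA1 to IMA5. IMPA2 lay inside the IMA range and the other IMPA libraries above it. The non-junction log2 fold change was -0.29 (SE 0.11, edgeR adjusted p = 0.0395), and without IMPA2 the edgeR adjusted p was 0.00928, the lowest of a range up to 0.155 over all alternatives. It was above 0.05 without IMPA1 (0.0545), IMPA4 (0.0704), IMPA5 (0.155), IMA1 (0.114), IMA2 (0.0671), IMA3 (0.0792) or IMA5 (0.0563), with DESeq2 (0.0662), with limma voom (0.0541) and with missing libraries dropped (0.0658). The ratio was higher in IMA by 0.87 (limma adjusted p = 0.0947), where the circular share averaged 13.4 ± 3.74% in IMPA and 21.7 ± 3.59 in IMA (SD, n = 5 per group).

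Non-junction entries were missing for 23 members in at least 1 library, and a limma fit that dropped the missing libraries reached 58 members and 1183 loci. It called 4 members higher at a Benjamini-Hochberg adjusted p under 0.01, beside 9.97% of all, and 1 lower, beside 9.55%. USP13, USP47, UBAP2 and HUWE1 (circ_0011852) were among the 5, and the other was KLHL24, the receptor of a Kelch ligase for keratins, whose locus was missing in IMPA2. Its log2 fold change was 0.43 (limma adjusted p = 0.000623). KLHL24 is named from its values, since the rule for named members used loci read in all libraries.

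Some member genes make several circRNAs that share a splice site, and the balance within such pairs was compared, a test added after seeing the data. In 9 member genes, 13 pairs of circRNAs shared exactly 1 end, the acceptor in 11 pairs and the donor in 2. No balance passed the test: limma, on log2 of the longer plus 1 over the shorter plus 1, called 0 of 13 member pairs at an adjusted p under 0.01 (Benjamini-Hochberg), beside 0% of 284 pairs. At an unadjusted p under 0.05 it placed 1 member pair, that of FBXW4, beside 10.6% of all pairs. There the longer circRNA was lower against the shorter in IMA, at a log2 fold change of -1.03 (SE 0.46, limma adjusted p = 0.442). For USP3 the same value was -0.25, for HERC4 0.02, for OTUD3 1.14, for UBE3C 0.85, for USP25 -0.68 and for RNF121 -0.14. The pairs within UBE3A gave -0.15, -0.18 and -0.02, and those within FBXW8 0.35, 0.76 and 0.41, all at a limma adjusted p of 0.594 or more.

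Further ubiquitin genes outside the prefixes hosted 29 circRNAs of 20 genes, from a list that held anaphase-promoting complex, COP9, RBR, TRAF and SUMO protease genes among others. In junction reads edgeR called 0 of 29 at a Benjamini-Hochberg adjusted p under 0.01, beside 0.927% of all circRNAs, and the median log2 fold change was -0.10, against -0.06 over all. At an unadjusted p under 0.05 it placed 1 higher (ASB7), beside 4.79% of all, and 3 lower (KCTD9, NFX1 and TRIP12), beside 8.35%. By limma voom and DESeq2 it was also 0 of 29, with 1 higher and 5 lower, and 1 higher and 3 lower, at an unadjusted p under 0.05. In non-junction reads 1 of 16 loci was called higher, beside 11.6% of all, and 0 lower, beside 10.1%. Of the 16, edgeR placed 3 higher and 4 lower at an unadjusted p under 0.05, beside 22.9% and 21.9% of all. The called locus was that of ASB1, the receptor of a cullin-RING ligase, at a log2 fold change of 0.44 (SE 0.12, edgeR adjusted p = 0.00432). For the ratio, limma called 0 of 16, beside 0.581% of all, with 3 higher and 1 lower at an unadjusted p under 0.05, beside 23.8% and 1.89%. With edgeR's interaction test 1 of 16, ASB7, was called higher, beside 3.05% of all, with 2 higher and 2 lower at an unadjusted p under 0.05, beside 23.8% and 2.18%.

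MiRNA targets were predicted by the authors for circRNA sequences, without scores or positions, and no sequence was read here. Members entered 655 of 15242 predicted pairs, with 283 of 435 miRNAs. A member had a median of 9 predicted miRNAs, as had all circRNAs, and 2 members, of USP24 and KLHL24, had none. The miRNA with the most members was chi-miR-145-5p, predicted for 8 (12.9%, against 9.72% of all circRNAs). Next came chi-miR-30a-3p with 7 (11.3%, against 5.12%) and chi-miR-500-5p with 6 (9.68%, against 4.37%).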

How the data were processed

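RNA from 5 IMPA and 5 IMA libraries was measured, each library once, and no library was left out. The authors depleted ribosomal RNA, mapped reads with HISAT2, kept back-splices found by both find_circ and CIRI2, and deposited junction and non-junction read counts for each circRNA, with gene and miRNA annotation. Their deposited normalized values are CPM, the junction read count scaled to 1e6 reads of the library, and these were recomputed from the counts as a check. Tool versions and the genome build are not given in the sources used here. The table also names 10 further samples without counts, which were not used.

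Members were taken by prefix of the host gene name, and members and lists were chosen with earlier results of these data known. Named members are those with an adjusted p under 0.05 in any test, the 5 with the smallest unadjusted p in each direction and test, the 6 with the most normalized junction reads, genes with 3 or more circRNAs, the 3 highest and 3 lowest circular shares, and members whose groups do not overlap in junction reads. Any member named beyond these was chosen after its values were seen. Some members are counted but not described. Junction counts were tested wherever 5 or more libraries had reads of a circRNA, with edgeR 4.0.16 (TMM, quasi-likelihood test, prior count 2, Benjamini-Hochberg, threshold 0.01) in R 4.3.3. Non-junction counts were to be filtered in the same way, but entries are missing where a circRNA was not called, so edgeR was run on loci with entries in all 10 libraries, and limma on log2 CPM with missing libraries dropped was added after seeing the data. The log2 ratio, with 1 added to both kinds of read, was tested with limma 3.58.1. Alternatives were DESeq2 1.42.0, limma voom, other scalings, filters, pseudocounts and thresholds, a block for the replicate number, and each library left out. The block treats IMPA and IMA libraries of equal number as paired, which no label states. The tests were also tried on simulated data. Tables and plots used Python 3.11.15, numpy 2.4.6, scipy 1.17.1, pandas 2.3.3 and matplotlib 3.10.9.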

Additional observations from a re-analysis of the deposited data

Results flagged for a closer look

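In 6 of 118 groups of 5 values (5.08%), taken from named members and from the share and number of members per library, the highest or lowest library lay far from the other 4. Chance alone gives about 1 in 20 such groups. IMA4 had 1454 normalized non-junction CPM at the locus of KLHL5 circ_0003371, where the other IMA libraries had 1232 to 1285. For UBA6 circ_0003509, IMA1 had 529.9 normalized junction CPM and the others 240.1 to 300.4. UBAP2 circ_0004528 had 901 normalized junction CPM in IMA4 and 320.1 to 479 in the other IMA libraries. At the locus of UBE3A circ_0009592, IMPA4 had 692 normalized non-junction CPM, below the 848 to 877 of the other IMPA libraries. FBXW4 circ_0011011 had 1809 normalized junction CPM in IMA2 and 701 to 971 in the others. IMA5 had 2589 normalized junction CPM for HERC4 circ_0011448, against 3201 to 3444 in the other IMA libraries.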

How the results depend on the processing

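Of the checks on named members, 374 of junction reads, 167 of non-junction reads and 163 of the ratio kept their direction and their side of the threshold. The cause of each change below was not tested. Junction reads, over all circRNAs: 6 were called higher, and 3 with edgeR's own filter or a mean count of 10; 6 were called lower, 2 without TMM, 1 with non-junction reads as library sizes, 10 with either of those filters and 12 at a threshold of 0.05. The median of all was 0.20 with non-junction library sizes. Members in junction reads had a median of 0.16 with non-junction library sizes and 0.10 with either filter, against -0.11. With non-junction library sizes 1 member was called higher, and 11 were higher and 2 lower at an unadjusted p under 0.05, while 1 was lower with either filter. FBXW8 circ_0008330 turned to -0.0543 with limma voom and ranged from -0.14 to 0.23 with a library left out. UBE3A circ_0009591, circ_0009592 and circ_0009593 turned to 0.0561, 0.15 and 0.30 with non-junction library sizes, and the last to 0.0293 without TMM.

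Non-junction reads, over all loci: 80 were called higher, 48 without TMM and 127 at 0.05; 70 were called lower, 106 without TMM, 113 by limma with missing libraries dropped and 119 at 0.05. Without TMM the medians were -0.0632 over all and -0.0757 over members, and 10 members were lower at an unadjusted p under 0.05. Of members, 1 was called lower by DESeq2 and 1 by limma with missing libraries dropped, where 8 were higher at an unadjusted p under 0.05. For the ratio, 4 circRNAs were called higher, 2 with a pseudocount of 0.5, 7 with reads in at least 5 libraries, 21 with edgeR's interaction test, 0 with a replicate block and 13 at 0.05. The interaction test called 2 members higher and put 1 lower at an unadjusted p under 0.05, and with a mean count of 10 the members' median was 0.47. Members' share of junction reads in IMPA and IMA was 4.89% and 5.17% without UBE3A circ_0009593, and 6.01% in IMA for core enzymes. Their share of detected circRNAs was 4.93% and 4.84%. With a replicate block, a pairing that no label gives, HUWE1 circ_0011849 passed in non-junction reads (edgeR adjusted p = 0.00896).

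With each library left out, ratio calls over all were 0 to 5, with 0 without IMPA2, IMA1, IMA3, IMA4 or IMA5. Members lower in the ratio at an unadjusted p under 0.05 were 0 to 2. Junction calls lower over all were 2 to 6, at 3 without IMPA1 and 2 without IMPA3, IMPA5 or IMA1. Members in junction reads at an unadjusted p under 0.05 were 1 to 3 higher, at 1 without IMPA2 or IMA1, and 3 to 7 lower, at 7 without IMA5. Members called lower in non-junction reads were 1 to 3, and 3 to 8 at an unadjusted p under 0.05, at 3 without IMA3. The 1 member pair under an unadjusted p of 0.05, that of FBXW4, became 0 with a replicate block or without IMPA3, IMPA4, IMPA5, IMA1, IMA2 or IMA3. A test of non-junction reads without any filter was not run, since entries are missing. Low counts limit junction reads: 68.8% of counts above 0 are under 10.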
